A study of Mus musculus with 3 samples.

Results

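The genes described here are those of the mouse Prader-Willi and Angelman locus, an imprinted domain of chromosome 7 around Snrpn, in ES cells depleted of the nucleoporin NUP153. They are 7 of the 24421 genes in the read counts: Ipw, Snrpn, Snurf, Ndn, Magel2, Mkrn3 and Ube3a. The locus was selected on the fold changes against control, in which its transcript Ipw was higher in both NUP153 knockdown libraries, so that these values are given as a description and without a test. RNA was measured by RNA-Seq in EL16.7, a female ES cell line derived from a cross between the 129S1 and CastEiJ mouse strains, grown on γ-irradiated mouse embryonic fibroblasts as feeders. The ES cells were transduced with a lentiviral shRNA and then plated on feeders, which came from Tg(DR4)1Jae/J mice. Selection followed with 2 days of puromycin at 2 μg/ml. The control library carried a control shRNA, and the NUP153 KD-1 and NUP153 KD-2 libraries each carried a different shRNA against NUP153. There was 1 library per condition, so that replicate error is unknown, and each knockdown is a partial depletion by 1 shRNA.

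Imprinted genes are transcribed mainly from the copy inherited from 1 parent, and DNA methylation laid down in the germ line marks which copy that is. In this domain the imprinting centre lies at the start of Snurf and Snrpn, and from the paternal copy come Snurf and Snrpn, Ndn, Magel2, Mkrn3 and a long noncoding transcript, Snhg14, that carries Ipw and small nucleolar RNAs and in neurons runs across Ube3a in antisense. Ube3a is transcribed from both copies in most cells and mainly from the maternal copy in neurons, and its loss causes Angelman syndrome, while loss of the paternal transcripts causes Prader-Willi syndrome. The counts here are summed over both copies, so that the parental origin of the reads was not analysed.

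Ipw is a noncoding RNA on the minus strand at chr7:59619158-59678878 (GRCm38), and the transcript that the GENCODE annotation pairs with its RefSeq accession is an isoform of Snhg14 with 734 bases in 6 exons. Its first exon, of 20 bases, lies upstream of the span that RefSeq gives for Ipw. It has no exon at the RefSeq start of Ipw, so its length and the repeated share given below leave out any exon there. Exons 2 and 3 are shown because they are nearly the same sequence, which bears on how its reads can be counted. Exon 2 spans chr7:59676338-59676484 and exon 3 spans chr7:59673810-59673956, each of 147 bases and 96.6% identical. Capitals mark the 5 bases that differ, A78G, T81A, G125C, C136T and A146T, counted from 1 at the 5′ end of each exon, with the base of exon 2 first.
Ipw exon 2: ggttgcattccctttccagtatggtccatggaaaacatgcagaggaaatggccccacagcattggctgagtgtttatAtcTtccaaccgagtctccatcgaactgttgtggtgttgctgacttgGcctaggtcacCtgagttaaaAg
Ipw exon 3: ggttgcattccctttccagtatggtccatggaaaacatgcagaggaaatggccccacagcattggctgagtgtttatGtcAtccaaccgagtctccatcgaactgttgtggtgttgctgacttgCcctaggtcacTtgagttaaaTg

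Among the exons of Snhg14 in the annotation, 13 have this length, and all of them are more than 90% identical to Ipw exon 2, the lowest at 94.6%. Of the 685 stretches of 50 bases in the Ipw transcript, the length of the reads, 168 (24.5%) occur at more than 1 place in Snhg14 transcripts and 0 occur in transcripts of other genes. Reads from these repeated stretches could be counted on Ipw or on Snhg14, or be removed by the mapping quality filter, and the read counts do not separate these. The window of 300 bases around the start of Ipw (chr7:59678829-59679128, minus strand, RefSeq, GRCm38.p6) itself holds a stretch that is 97.3% identical to exon 2, and it holds 1 CG. It is shown beside the window around the shared start of Snurf and Snrpn (chr7:60005150-60005449, minus strand), within the imprinting centre, which holds 7 CG. Capitals mark the CG dinucleotides, the bases that DNA methylation acts on.
Ipw start: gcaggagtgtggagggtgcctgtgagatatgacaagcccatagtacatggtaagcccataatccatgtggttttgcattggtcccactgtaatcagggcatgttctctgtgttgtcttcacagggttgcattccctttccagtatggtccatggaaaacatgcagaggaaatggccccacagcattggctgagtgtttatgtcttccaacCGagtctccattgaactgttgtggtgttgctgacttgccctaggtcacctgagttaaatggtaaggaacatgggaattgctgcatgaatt
Snurf and Snrpn start: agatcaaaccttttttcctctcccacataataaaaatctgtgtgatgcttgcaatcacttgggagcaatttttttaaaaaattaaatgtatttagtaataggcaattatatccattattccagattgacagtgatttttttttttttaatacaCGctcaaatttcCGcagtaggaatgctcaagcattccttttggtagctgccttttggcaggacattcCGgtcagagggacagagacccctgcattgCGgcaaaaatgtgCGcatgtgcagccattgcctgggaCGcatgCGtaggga

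At least 1 CG was found in 94.6% of the 32817 windows of this length in the RefSeq table, and as many as 7 were found in 52.1% of them. The windows of Ndn, Magel2, Mkrn3 and Ube3a hold 11, 10, 15 and 29 CG, and 12.9% of all windows hold as many as that of Ube3a. TGCCGC, the motif of ZFP57, a protein that protects methylated imprints, was searched on both strands and occurs 1 time in the window of Snurf and Snrpn and 0 times in those of Ipw, Ndn, Magel2, Mkrn3 and Ube3a. It occurs in 11.6% of all windows. These are descriptions of the letters, since no binding and no methylation was measured in these libraries.

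Reads on genes numbered 72344726 in control, 85258834 with KD-1 and 69839336 with KD-2. Libraries were scaled by upper-quartile normalization, a fold change is the ratio of scaled reads, and its 95% interval covers the counting of reads only. Nup153, the targeted gene, had 27870 reads in control, 16451 with KD-1 and 11126 with KD-2, which is 0.504 and 0.371 of control. The 12 ES cell markers had median log2 fold changes of 0.08 with KD-1 and -0.30 with KD-2 (-0.14 with library totals), with 1 more than 1.5-fold higher in KD-1, and 1 higher and 3 lower in KD-2 (1 and 0 with library totals). The 3 lower in KD-2 were Zfp42, Tdgf1 and Dppa4. By mean absolute log2 fold change over both knockdowns, the most changed markers were Utf1, Dppa5a and Lin28a. Utf1 was higher in both at 127, 240 and 308 reads, Dppa5a had 74575, 111186 and 54008 reads, and Lin28a had 11118, 11032 and 8184 reads. All 16 markers of fibroblasts, the feeder cells, were detected as well, and together they held 0.322% of the reads on genes in control, 0.218% with KD-1 and 0.585% with KD-2. Of these 16 genes 10 were more than 1.5-fold lower in KD-1 and 12 were more than 1.5-fold higher in KD-2. By mean absolute log2 fold change over both knockdowns, the most changed were Postn, Acta2 and Col3a1. Over all genes 8.63% were more than 1.5-fold higher and 5.62% lower in KD-1, and 17.1% and 10.2% in KD-2. In bulk RNA, fewer cells of a type and less RNA per cell cannot be told apart.

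Ipw, the noncoding RNA first described as imprinted in the Prader-Willi region, had 237 reads in control, 1443 reads in KD-1 and 1217 reads in KD-2. Both knockdown libraries were far above the control library and close to each other. The fold change was 5.20 in KD-1 (95% interval 4.53 to 5.99) and 4.77 in KD-2 (4.15 to 5.50), or 2.38 and 2.25 on the log2 scale. Among the 16670 genes with a mean of 10 or more reads, Ipw had the rank 29 from the top in KD-1 and the rank 31 in KD-2. The ratio of KD-1 to KD-2 was 1.09 (1.01 to 1.18), and its direction turned with the scaling of the libraries, from 0.12 to -0.04 on the log2 scale. Ipw was higher in KD-1, where the fibroblast markers were lower, and in KD-2, where they were higher, and the part of the feeder cells in its reads was not tested. Rn45s, the ribosomal RNA precursor that the depletion step is meant to remove, had 583027 reads in control, 2533951 with KD-1 and 1525879 with KD-2, with log2 fold changes of 1.89 and 1.28. It was chosen after its values were seen, and the part of ribosomal RNA carry-over in the result for Ipw was not tested.

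Snrpn encodes SmN, a core protein of spliceosomal particles that is most abundant in neurons, and Snurf is a small protein encoded at the start of the same transcripts. Snrpn had 2 reads in control, 15 reads in KD-1 and 5 reads in KD-2, and Snurf had 0 reads in all 3 libraries. The ratio of Snrpn reads to control was 6.40 in KD-1, with an interval from 1.49 to 57.7, and 2.32 in KD-2, with an interval from 0.380 to 24.4 that includes equal levels. With a mean of 7.33 reads Snrpn lay under the minimum of 10, and it is not counted among the genes past a fold change.

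Reads of Snurf and Snrpn are hard to assign to either gene. All 216 exon bases that GENCODE gives for Snurf lie within exons of Snrpn, and of the 2159 exon bases of Snrpn 227 lie in the 2 exons of its upstream start. RefSeq ends both genes at the same position, 59982495, with the start of Snurf at 60005199. A read that falls on both genes has no single gene to be assigned to, and the reads set aside as ambiguous were 1.65% of all reads in control, 1.53% with KD-1 and 1.45% with KD-2. How many of these came from Snurf and Snrpn is not given by the counts. Since no read could fall on Snurf alone under this annotation, its 0 reads set no limit on its level. The reads counted on Snrpn may leave out ambiguous ones, so they set no upper limit on the level of Snrpn.

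Ndn encodes necdin, a MAGE family protein that restrains the cell cycle in neurons. It had 1072 reads in control, 1071 with KD-1 and 1533 with KD-2. KD-1 was slightly under control and KD-2 above it, with fold changes of 0.853 (0.783 to 0.929) and 1.33 (1.23 to 1.44). The ratio of KD-1 to KD-2 was 0.642 (0.593 to 0.695), and it lay between 0.572 and 0.642 under the 4 scalings tried. The fibroblast markers were on the same sides of control in these libraries, and their part in the reads of Ndn was not tested.

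Mkrn3, a makorin zinc finger protein with ubiquitin ligase activity whose loss leads to early puberty, had 166 reads in control, 227 with KD-1 and 267 with KD-2. Control was lowest and KD-2 highest. The fold change was 1.17 in KD-1, with an interval from 0.951 to 1.43, and 1.49 in KD-2 (1.23 to 1.82), which is just inside the limit of 1.5. With TMM normalization, DESeq2's size factors or library totals it was 1.53, 1.53 or 1.66 and passed that limit. Magel2, a MAGE family partner of the ligase TRIM27 in endosomal protein recycling, had 8 reads in control, 10 with KD-1 and 8 with KD-2. These libraries could not be told apart at this depth, since the intervals of its fold changes, 0.379 to 3.11 in KD-1 and 0.304 to 2.84 in KD-2, include equal levels.

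Ube3a encodes the ubiquitin ligase E6-AP. It had 12877 reads in control, 14413 with KD-1 and 10941 with KD-2, the most of the 7 genes in each library. After scaling, KD-1 was close to control and KD-2 was lower, with fold changes of 0.955 (0.933 to 0.978) and 0.789 (0.769 to 0.809). The value in KD-2 was 0.880 with library totals. Whether the strand of the reads was used in counting is not stated, so that reads from Snhg14 in antisense to Ube3a cannot be told apart from those of Ube3a.

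**Figure D1:**
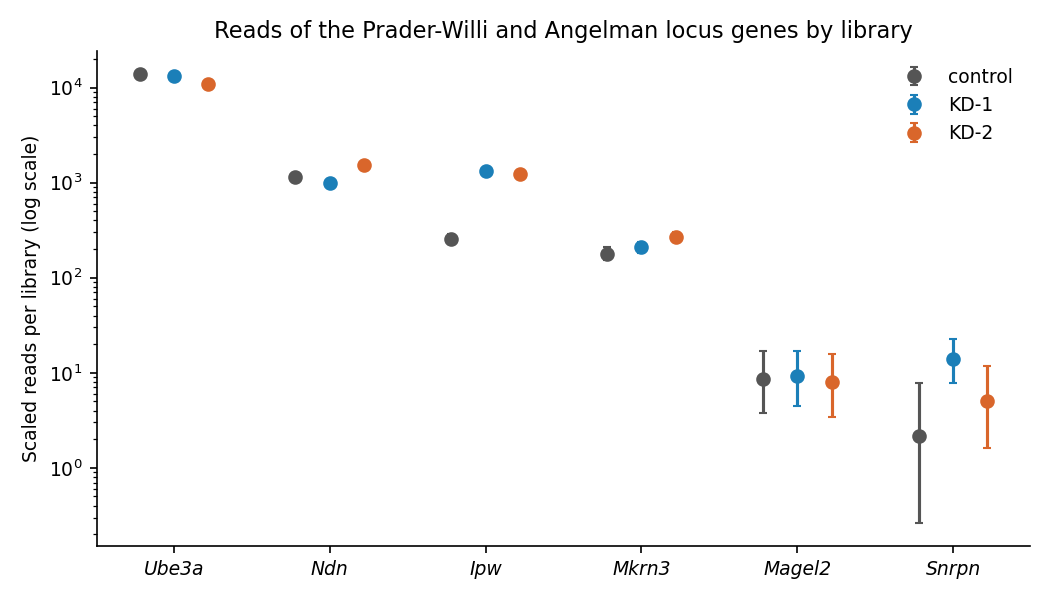
Scaled reads (log scale) of 6 locus genes in the control, KD-1 and KD-2 libraries, with 95% Poisson intervals for the counting of reads, and without Snurf, which had 0 reads. Ipw has 256 scaled reads in control, 1331 with KD-1 and 1221 with KD-2, and Snrpn and Magel2 have wide intervals.

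Of the 7 genes, 4 had a mean of 10 or more reads (Ipw, Ndn, Mkrn3 and Ube3a). In KD-1 1 of the 4, Ipw, was more than 1.5-fold higher than in control, where 8.63% of the 16670 genes were, and 0 were more than 1.5-fold lower, where 5.62% of all genes were. In KD-2 Ipw was again the 1 gene more than 1.5-fold higher, where 17.1% of all genes were, and 0 of the 4 were more than 1.5-fold lower, where 10.2% of all genes were. Mkrn3 was the 1 further gene past the limit in KD-2 under the other scalings. Of the 4 genes 1 was more than 1.5-fold higher in both knockdowns, where 3.64% of all genes were, and 0 were lower in both, where 0.99% were. More than 4-fold higher in both were 0.042% of all genes, which is 7 genes with Ipw among them. Both comparisons share the control library. In the comparison of KD-1 to KD-2, which does not involve that library, Ndn was more than 1.5-fold lower in KD-1, as were 16.1% of all genes, and 0 of the 4 were more than 1.5-fold higher, as were 13.9%. The median log2 fold change of the 4 genes was 0.08 with KD-1 and 0.49 with KD-2, beside 0.02 and -0.02 over all genes. Without Ipw, on which the choice of the locus rests, the median of the other 3 was -0.066 with KD-1 and 0.41 with KD-2.

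**Figure D2:**
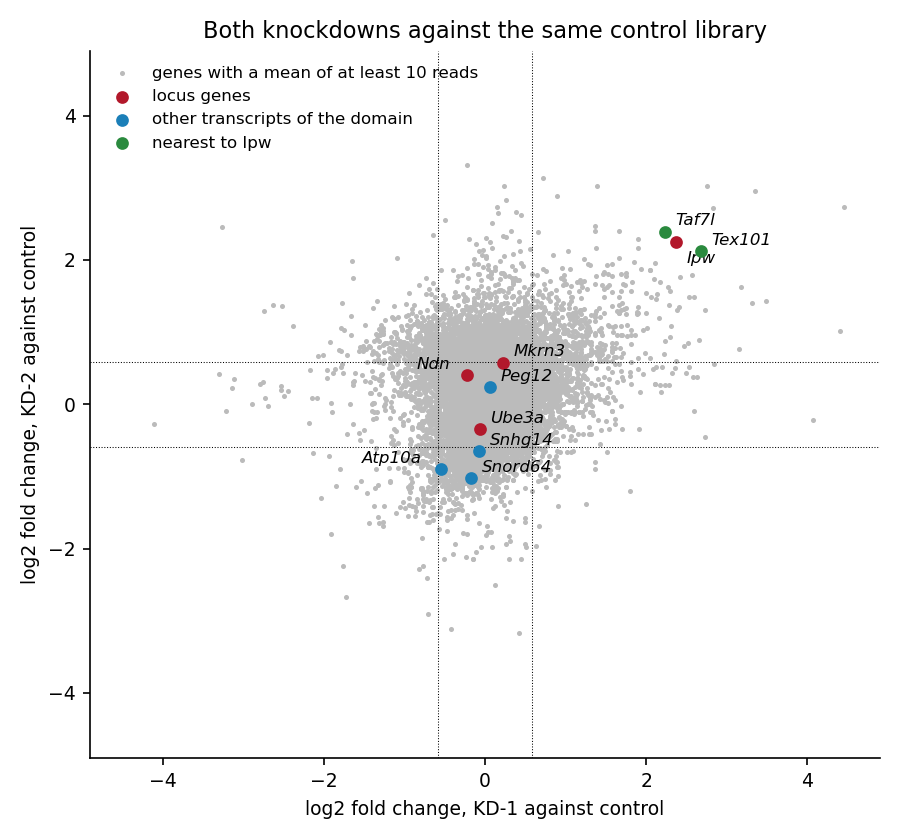
Log2 fold change in KD-1 (x axis) and in KD-2 (y axis) against the same control library, for genes with a mean of 10 or more reads (gray), with locus genes in red, other transcripts of the domain in blue and the nearest genes to Ipw in green. The dotted lines mark a 1.5-fold change, and Ipw lies at 2.38 and 2.25 while Ndn, Mkrn3 and Ube3a lie within the lines.

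Levels of different genes were compared per length, in RPKM (reads scaled by transcript length and by the reads on all genes). Ube3a was highest in control at 18.1 RPKM, followed by Ipw at 4.46, Ndn at 4.01, Mkrn3 at 0.901 and Magel2 at 0.0239. Ipw and Ndn did not differ beyond counting error there, with a ratio of 1.11 and an interval from 0.963 to 1.28. In both knockdowns Ipw had the highest level of these genes, 23.1 RPKM with KD-1 and 23.7 with KD-2, above Ube3a at 17.2 and 15.9. The ratio of Ipw to Ube3a was 1.34 (1.27 to 1.42) in KD-1 and 1.49 (1.41 to 1.58) in KD-2. Which stretch the Ipw entry covers is not given, so that this order rests on the length of 734 bases taken for it, and a length more than 1.34 times that in KD-1 or 1.49 times in KD-2 would place Ipw under Ube3a.

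Ndn had 3.40 RPKM with KD-1 and 5.94 with KD-2, Mkrn3 had 1.05 and 1.501, and Magel2 had 0.0253 and 0.0247, and their order was the same in each library. The order of Ipw and Ndn in control depends on the length given to Ndn. Over the 1652 bases of its span in RefSeq, in place of the 3694 bases of its GENCODE transcript, Ndn had 8.97 RPKM in control, 7.60 with KD-1 and 13.3 with KD-2, which places it above Ipw in control and below Ipw in both knockdowns. For Ube3a all annotated exons, in place of 1 transcript, gave 8.63, 8.20 and 7.60 RPKM. Among all genes with a length, 68.2% had a lower RPKM than Ipw in control, 87.4% with KD-1 and 87.2% with KD-2.

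The 7 genes together had 14362 reads in control, 17179 with KD-1 and 13971 with KD-2, or 0.0199%, 0.0201% and 0.0200% of the reads on genes. Ipw made up 1.65% of the reads of the locus genes in control (exact Clopper-Pearson 95% interval 1.45 to 1.87), 8.40% in KD-1 (7.99 to 8.82) and 8.71% in KD-2 (8.25 to 9.19). The share of Ube3a was 89.7% in control, 83.9% with KD-1 and 78.3% with KD-2. Ndn made up 7.46%, 6.23% and 11.0% of these reads. These shares do not depend on how the libraries are scaled to each other.

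The other transcripts of the domain were read from a list of 19 names, of which 17 are among the genes used and 4 had any read. Snhg14, the host transcript of Ipw, had 3038 reads in control, 3392 with KD-1 and 2079 with KD-2. Its log2 fold change was -0.07 with KD-1 and -0.65 with KD-2, so that neither library was above control, unlike Ipw. In KD-2 the fold change of Snhg14 was 0.635 (0.601 to 0.672), and with library totals it was 0.709, inside the limit of 1.5-fold. The counts also list C230091D08Rik, which RefSeq gives as another name of Snhg14, with 2542, 2815 and 2308 reads and log2 fold changes of -0.08 and -0.25, and which stretch of the transcript each of these entries covers is not given. C230091D08Rik was chosen after its values were seen.

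Snord64, a small nucleolar RNA within the same transcript, had 25, 26 and 13 reads in control, KD-1 and KD-2. Snord116 and the Mir344 microRNA entries, 13 in all, had 0 reads in every library. How reads on such entries were counted is not given, so 0 reads set no limit on their level. Peg12, a paternally expressed gene beside Mkrn3, had 425, 521 and 538 reads, with log2 fold changes of 0.07 and 0.23, the first of which turned its direction with the scaling. Atp10a, a phospholipid flippase gene next to Ube3a, had 1635 reads in control, 1313 with KD-1 and 944 with KD-2. It was lower in both knockdowns, at 0.685 (0.637 to 0.737) and 0.536 (0.494 to 0.581) of control. Of these 4 transcripts 0 were more than 1.5-fold higher in KD-1 or in KD-2, where 8.63% and 17.1% of all genes were. In KD-2 3 were more than 1.5-fold lower, Snhg14, Snord64 and Atp10a, as were 10.2% of all genes. With library totals these were Snord64 and Atp10a, and with DESeq2's size factors Atp10a also passed the limit in KD-1. The fold change of Snord64 in KD-2 had an interval from 0.227 to 0.980. Their median log2 fold change was -0.12 with KD-1 and -0.78 with KD-2.

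Beyond the domain, 20 flanking genes were read on both sides, of which 17 had a mean of 10 or more reads. Their median log2 fold change was -0.10 with KD-1 and -0.18 with KD-2. In KD-1 and in KD-2 0 were more than 1.5-fold higher, where 8.63% and 17.1% of all genes were. More than 1.5-fold lower were 1 with KD-1 and 3 with KD-2, beside 5.62% and 10.2% of all genes. With library totals the median in KD-2 was -0.02 and 1 gene was lower. Among those lower in KD-2 were Gabra5, a GABA receptor subunit gene, and the gene of the nucleolar protein Mphosph10. Gabra5 had 20, 15 and 9 reads in control, KD-1 and KD-2 and was the 1 gene past the limit in both, although the interval of its fold change with KD-1, 0.305 to 1.32, includes equal levels. Mphosph10 had 14856, 16709 and 10415 reads, and with library totals it was inside the limit in KD-2, at 0.726 of control. Herc2, a ubiquitin ligase that binds UBE3A, had 14898, 17275 and 15510 reads and log2 fold changes of -0.02 and -0.05.

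In edgeR's quasi-likelihood test of both knockdown libraries against control, whose spread comes from KD-1 and KD-2 alone at 1 residual degree of freedom, the 21 domain and flanking genes tested each had an adjusted p of 0.999981. Over all genes this test called 1 of 16670 (0.006%), Mir6236, which lies outside of the lists, and 211 had an unadjusted p under 0.05. Mir6236 had 1229 reads in control, 24133 with KD-1 and 1136 with KD-2, so that it was above control in KD-1 alone, with log2 fold changes of 4.07 and -0.22. In it Atp10a had a log2 fold change of -0.71 and Snhg14 one of -0.33.

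**Figure D3:**
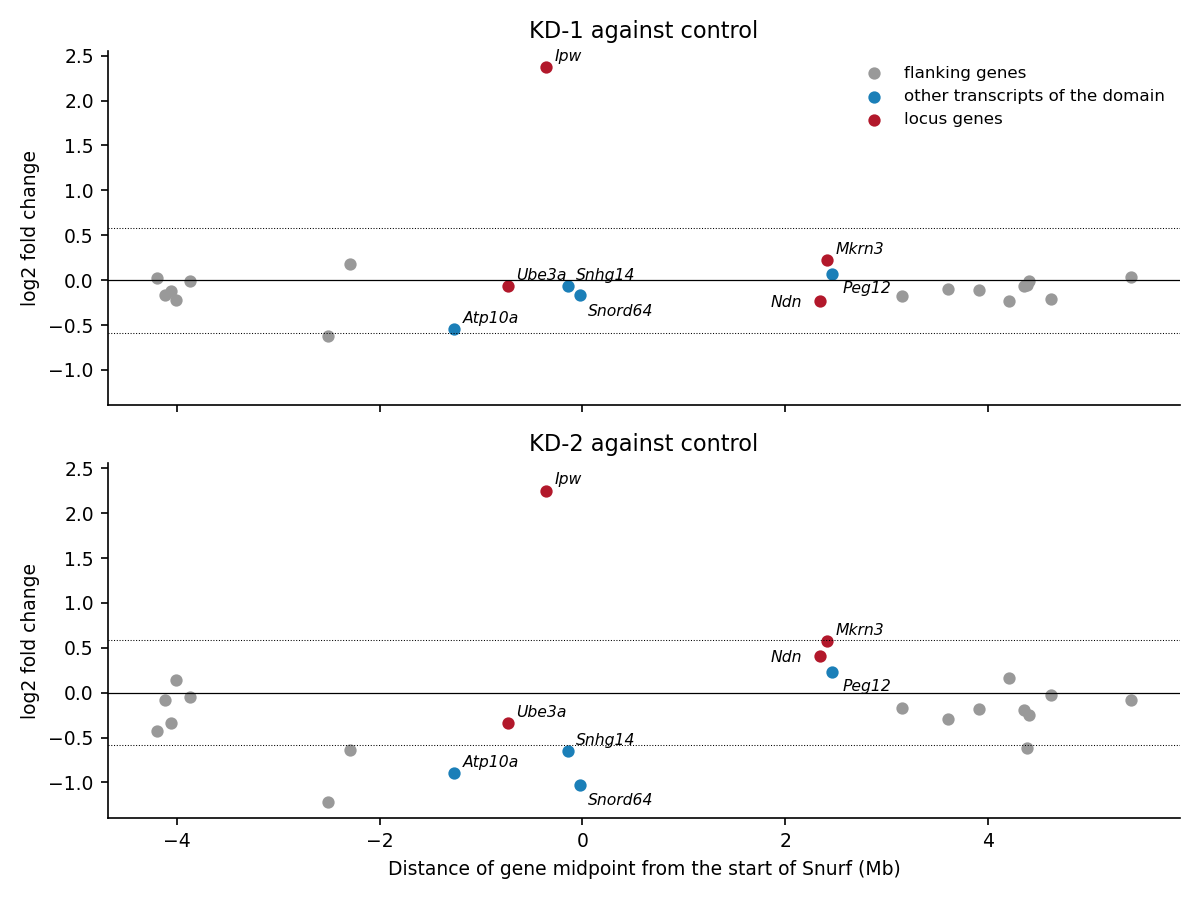
Log2 fold change against control of locus genes (red), other transcripts of the domain (blue) and flanking genes (gray) by distance of the gene's midpoint from the start of Snurf in Mb, in KD-1 (top) and KD-2 (bottom), for genes with a mean of 10 or more reads. The dotted lines mark a 1.5-fold change, and Ipw is the gene above the upper line in both panels, at 2.38 and 2.25, while Snhg14 lies at -0.07 and -0.65.

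Imprinted genes of other domains were read from a list of 41, of which 37 had a mean of 10 or more reads. In KD-1 4 were more than 1.5-fold higher and 4 lower, beside 8.63% and 5.62% of all genes. In KD-2 9 were higher and 1 lower, beside 17.1% and 10.2% of all genes. The medians were -0.06 with KD-1 and 0.14 with KD-2 on the log2 scale. With library totals 14 were higher and 0 lower in KD-2, with a median of 0.30. The 1 gene past the limit in both was Dlk1, an atypical Notch ligand that was named after its values were seen, with 22 reads in control, 60 with KD-1 and 46 with KD-2. The largest mean absolute log2 fold changes, at a mean of 100 or more reads, were those of Igf2, H19 and Cd81. Igf2, a fetal growth factor, had 10646 reads in control, 7782 with KD-1 and 22852 with KD-2, and H19, the noncoding RNA beside it, had 64698, 43961 and 127494 reads. Both were under control with KD-1 and above it with KD-2, as Ndn and the fibroblast markers were, while Ipw was higher in both.

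Writers, readers and repressors of imprints, of which 31 of 32 listed genes had a mean of 10 or more reads, had median log2 fold changes of 0.10 with KD-1 and -0.40 with KD-2. In KD-1 the 1 gene more than 1.5-fold higher was Zfp57, with 5227 reads in control, 10109 with KD-1 and 4836 with KD-2, which was named after its values were seen. In KD-2 6 were more than 1.5-fold lower, and among them Dppa3, which protects the maternal genome from demethylation, had 5419, 4567 and 1912 reads. Setdb1, a histone methyltransferase recruited through ZFP57 and TRIM28, had 3960, 6581 and 3082 reads, and the histone demethylase Kdm1b, needed to set imprints in oocytes, had 1751, 1560 and 1275 reads. With library totals the median of this list in KD-2 was -0.24, with 1 gene more than 1.5-fold higher and 2 lower.

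Partners and relatives of the proteins of the locus, 27 genes with a mean of 10 or more reads, had medians of -0.04 with KD-1 and -0.38 with KD-2. In KD-1 0 of them were past the limit in either direction, beside 8.63% of all genes higher and 5.62% lower. In KD-2 1 was more than 1.5-fold higher and 5 lower, beside 17.1% and 10.2% of all genes. With library totals these were 2 and 4, and the median in KD-2 was -0.22. The gene higher with upper-quartile scaling was Snrpf, a Sm protein that is assembled with SmN or its relatives. Snrpf had 191 reads in control, 236 with KD-1 and 691 with KD-2. Snrpg, another Sm protein, had 31674, 31613 and 19865 reads, and Ube2d1, an E2 enzyme that works with E6-AP, had 298, 423 and 191 reads. Over the 114 genes of the domain, the flanks and these 3 lists that were tested, edgeR's quasi-likelihood test called 0, with 1 gene, Dppa3, at an unadjusted p under 0.05. DESeq2's Wald test also called 0 of them, with 0 at an unadjusted p under 0.05.

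**Figure D4:**
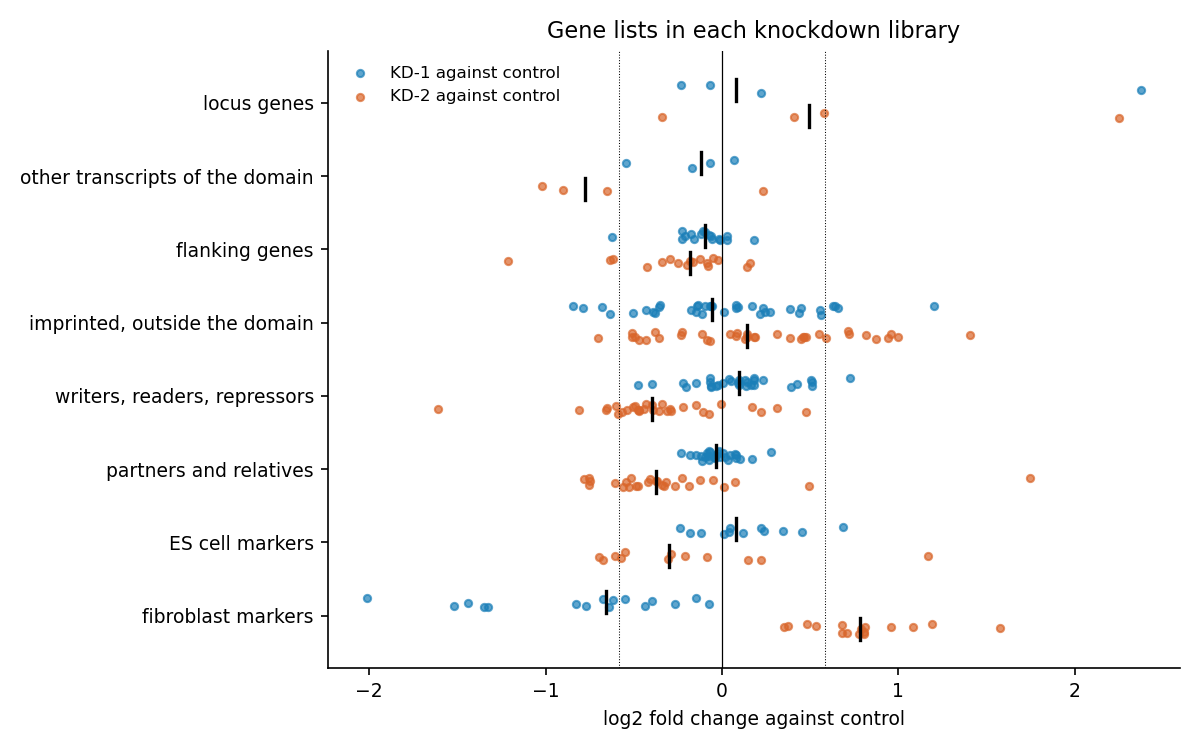
Log2 fold change against control in KD-1 (blue) and KD-2 (orange) of each gene with a mean of 10 or more reads in the locus and in the gene lists, with the median of each list as a black bar and a 1.5-fold change as dotted lines. Fibroblast markers have medians of -0.66 with KD-1 and 0.78 with KD-2, and Ipw is the rightmost point of the locus genes in both.

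The genes whose pair of fold changes lay nearest to that of Ipw, among genes with a mean of 100 or more reads, were Taf7l, Tex101, Mir6240, Cidea and Sycp1, at distances of 0.20, 0.33, 0.49, 0.84 and 1.06 on the log2 scale over the 2 knockdowns. Taf7l, an X-linked TFIID subunit of male germ cells, had 225 reads in control, 1241 with KD-1 and 1275 with KD-2, close to the read counts of Ipw itself. Tex101, a surface protein of germ cells, had 34, 258 and 161 reads, and Sycp1, a protein of the synaptonemal complex, had 303, 1417 and 784 reads. Mir6240 had 126, 791 and 461 reads. Of the 5 genes, Taf7l and Tex101 were more than 4-fold higher in both knockdowns, as Ipw was.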

How the data were processed

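RNA was measured in 3 libraries, control, KD-1 and KD-2, of mouse ES cells. Total RNA had been depleted of ribosomal RNA with Ribo-Zero Gold and sequenced in single-end reads of 50 bp. The authors trimmed the reads with Trim Galore 0.4.1, mapped them with TopHat2 2.1.1 to mm10 (GRCm38), with UCSC known genes, and deposited counts of reads on each gene that are not normalized. The methods name featureCounts and the submitters' processing notes name HTSeq, and the strand setting is not given in the sources used here. Lines for reads outside of genes (23.5%, 25.6% and 23.0% of all reads) were left out. These counts were scaled by edgeR's upper-quartile normalization (edgeR 4.0.16, R 4.3.3). Log2 fold changes used a pseudocount of 0.5 scaled reads, and genes with a mean of 10 or more reads were counted past a 1.5-fold change. Intervals are exact Clopper-Pearson or Poisson intervals at 95% (scipy 1.17.1) and cover the counting of reads only, since PCR copies were not separated. Depth per library was 72344726, 85258834 and 69839336 reads on genes. Precision is limited by few reads for Snrpn and Magel2, and reads of Snrpn may also have been set aside as ambiguous.

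With 1 library per condition no single comparison was tested. Both knockdown libraries were tested against control with edgeR's quasi-likelihood test and Benjamini-Hochberg adjustment, with DESeq2 1.42.0 as an alternative, fitted over all genes with enough reads and read for genes outside of the locus. The test was also run on simulated data, and no result of that run is given here. RPKM used the longest GENCODE vM21 transcript paired with a RefSeq accession of the gene, over reads on genes. Start windows came from RefSeq (GRCm38.p6), in which all 7 locus genes matched. No protein sequence was used, and genome sequence was used in the start windows only. The locus genes and the gene lists were chosen with earlier results of these data known. Named were all 7 locus genes, Nup153, domain and flanking genes with a read (1 of them is not reported here), the 3 genes with the largest changes per list, and the 5 genes nearest to Ipw, the last 2 groups at a mean of 100 or more reads. Alternatives were TMM, DESeq2's size factors, library totals, minimum means of 1 and 100 reads or none, a pseudocount of 5 reads, a 2-fold limit and, added after seeing the data, another exon length. Figures were drawn with matplotlib 3.10.9.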

Additional observations from a re-analysis of the deposited data

Results flagged for a closer look

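Ndn lay on opposite sides of control in the 2 knockdown libraries, and its log2 fold change of KD-1 against KD-2 was -0.64. Its log2 fold change against control was -0.23 with KD-1 and 0.41 with KD-2. With 1 library per condition this difference was not tested across replicates. The summed share of fibroblast markers moved in the same directions, from 0.322% in control to 0.218% with KD-1 and 0.585% with KD-2, and its part in the reads of Ndn was not tested.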

How the results depend on the processing

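Ipw was more than 1.5-fold higher in both knockdowns under each of the 4 scalings, with log2 fold changes from 2.31 to 2.38 in KD-1 and from 2.25 to 2.41 in KD-2. Leaving out Ipw, a choice made after seeing the data, turned the median of the counted locus genes in KD-1 from 0.078 to -0.066. Library totals shifted the median of all genes in KD-2 from -0.02 to 0.14. In KD-2 they gave 3942 genes higher and 820 lower, beside 2847 and 1700 with upper-quartile scaling, and in KD-1 against KD-2 1229 higher and 3525 lower, beside 2322 and 2691. A minimum mean of 1 read gave 2686 higher and 1723 lower in KD-1 (1438 and 937 at a minimum of 10), 2555 lower in KD-2 and 3490 higher in KD-1 against KD-2. A minimum of 100 reads gave 479 and 549 with KD-1, 1745 and 1107 with KD-2, and 1389 higher in KD-1 against KD-2. Without a minimum the numbers were 3211 and 2087, 4545 and 2916, and 4012 and 4068, and with a 2-fold limit they were 515 and 255, 903 and 309, and 523 and 1316. These follow from the genes each setting admits or rescales. The quasi-likelihood test called 1 gene, 0 with DESeq2's size factors or library totals (123 and 120 genes with an unadjusted p under 0.05), and 2 without a minimum, and DESeq2's Wald test called 2. These are Taf7l and Ipw, and since the locus was selected on these fold changes of Ipw, its call was fixed by that choice and is no test of it. No paired analysis was possible because each condition has 1 library. Leaving out a library would have removed a condition. Few reads limit the precision for Snrpn and Magel2.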
